A study of Mus musculus with 18 samples.

Results

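The cells described here are 4T1R1, a population obtained by selecting the mouse mammary carcinoma line 4T1 with 17-DMAG (alvespimycin), a geldanamycin derivative that inhibits the chaperone HSP90. Their response to the drug was taken as the comparison of the 3 libraries of 17-DMAG-treated 4T1R1 with the 3 libraries of untreated 4T1R1, which are 6 of the 18 RNA-seq libraries of the series. The other 12 libraries are untreated and 17-DMAG-treated 4T1 and 4T1R2, a second selected population, and were used only to show where 4T1R1 differed. All cells were of BALB/cfC3H origin and wild type, and received either no drug or 1.5 µM 17-DMAG. The sample records give DMEM with 10% fetal bovine serum as the medium, whereas the methods of the study give DMEM/F12 with a lower share of serum. The sample records also give 48 h for the exposure to the drug and the description of the series gives 2 h, so the time is not settled here. The selection is recorded as 3 rounds of 1.5 µM for 48 h in one place and as several cycles of 1 µg/ml for 24 h in the other. The resistant cells were sequenced as populations, and nothing in the records says that they are clones. The 3 libraries of a group are called biological replicates, but how the cultures were separated is not given, and the p-values measure the spread between these libraries.

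HSP90 folds and stabilizes many kinases, transcription factors and receptors, working with HSP70, the J-domain proteins of the HSP40 family and a set of co-chaperones. It also holds the transcription factor HSF1 in check, and drugs that occupy HSP90 release HSF1, which binds inverted repeats of nGAAn (heat shock elements) upstream of chaperone genes. The kinases that lead to NF-κB are HSP90 clients, and NF-κB drives chemokines, cytokines and its own inhibitors from κB elements. 4T1 cells are known for high production of neutrophil-recruiting factors such as CSF3 and CXCL5. The integrated stress response, in which phosphorylated eIF2α raises translation of ATF4, is another route by which cells answer misfolded protein.

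Upstream sequences of some genes that the results turn on are shown first, picked because they held a motif match. They are given as the 5′ to 3′ strand of each gene, with the letters that matched in capitals. They come from the RefSeq promoter table for GRCm38.p6, which covered 10095 of the genes tested and for which the 250 bases before each start were searched. Positions count back from the start, with -1 as the base before it. Hspa1b and Dnaja1 had the motif in a form of GAANNTTC and Hsph1 in the form TTCNNGAA, whereas Hspe1 had 2 overlapping matches to the longer forms GAANNTTCNNGAA and TTCNNGAANNTTC. The region before Hspe1 is shared with Hspd1, its neighbor in head-to-head orientation, and lies in an exon of another annotated Hspd1 transcript. The 30 bases shown for Dnaja1 and 26 of the 30 for Hsph1 also lie in annotated GENCODE exons. Cxcl1 and Nfkbia had matches to GGGANNTTCC or GGAANNTCCC, the κB forms searched. Other leading genes had none. Dnajb1, Chordc1, Ahsa1 and Ahsa2 had windows without a heat shock match, and Zc3h12a and Ccl20 had windows without a κB match. Hspa8, Hsp90aa1, Hsp90ab1, Csf3, Cxcl5 and Nos2 were not in the promoter table.
Hspa1b, chr17:34959239-34959388, minus strand, positions -150 to -1: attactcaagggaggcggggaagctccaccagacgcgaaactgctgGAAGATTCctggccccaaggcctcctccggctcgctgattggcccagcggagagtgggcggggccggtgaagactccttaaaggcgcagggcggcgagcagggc
Hspe1, chr1:55088053-55088082, plus strand, positions -95 to -66: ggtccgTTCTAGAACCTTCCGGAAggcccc
Hsph1, chr5:149636351-149636380, minus strand, positions -44 to -15: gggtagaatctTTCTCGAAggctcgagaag
Dnaja1, chr4:40722333-40722362, plus strand, positions -135 to -106: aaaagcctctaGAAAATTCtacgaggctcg
Cxcl1, chr5:90891095-90891240, plus strand, positions -150 to -5: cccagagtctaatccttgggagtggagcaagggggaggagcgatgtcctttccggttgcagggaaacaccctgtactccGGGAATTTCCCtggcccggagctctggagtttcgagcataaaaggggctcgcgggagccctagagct
Nfkbia, chr12:55492648-55492797, minus strand, positions -150 to -1: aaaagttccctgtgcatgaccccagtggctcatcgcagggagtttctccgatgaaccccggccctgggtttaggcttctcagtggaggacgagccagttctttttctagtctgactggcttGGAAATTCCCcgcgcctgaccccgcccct

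These motifs are short and common, and a match describes letters only. The GAANNTTC or TTCNNGAA form was in 12.8% of all 32851 upstream windows of the table. A gene was counted if any of its windows matched, so shares of genes and of windows are unlike measures. By gene, the form was in 12.6% of 1426 that rose on 17-DMAG in 4T1R1 and 11.8% of 1494 that fell, beside 862 of 7175 not called. Among changes over 0.5 on the log2 scale it was in 27 of 130 rises (20.8%) and 21 of 137 falls (15.3%). The longer heat shock form, which contains the shorter one, was in 0.466% of all windows, in 17 genes that rose (1.19%), in 3 that fell (0.201%) and in 0.418% of 7175 genes not called. Among 97 tested members of the chaperone lists with a window, 21 (21.6%) had the shorter form, and 12 of the 21 rose and 1 fell. The κB forms were in 1.21% of all windows, in 1.32% of 7175 genes not called and in 9 of 50 genes of the NF-κB list (18.0%). Of these 9, Cxcl1, Nfkb2 and Nfkbia fell, Cxcl10 and Cyld rose, and the other 4 were not called.

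The 4T1R1 libraries held 26676031 to 32560660 counts each, and the 17 libraries of the fit gave 13507 testable genes of 24421 listed. Counts up to 12 were even in 65.6% to 70.8% of cases in every library of the series, so a count appears to be 1 read of a pair and not a fragment. The ribosomal RNA precursor Rn45s took 13.4%, 15.6% and 13.6% of the counts in untreated and 9.54%, 12.2% and 10.1% in treated 4T1R1. In treated 4T1, replicates 1 and 2 were closer to each other than sampling noise allows in the other pairs (chi-square per gene 1.10 against 2.04 to 2.22) and were averaged as 1 sample, so that group has n = 2. The summed level of 10 epithelial and 4T1 carcinoma markers was 52479 to 54949 normalized counts in untreated and 52671 to 54183 in treated 4T1R1. That of 9 leukocyte markers was 232.2 to 234.8 and 208.0 to 238.1, carried mostly by Cd68 with Adgre1 and Nkg7 at 0. That of 10 fibroblast and endothelial markers was 852.6 to 907.3 and 715.2 to 791.3, carried mostly by Pdgfra with Lum at 0. The library identifiers of 4T1R1 form a number series apart from the identifiers of the other populations. A difference in level or in response between 4T1R1 and these populations therefore cannot be separated from the series. The treated and untreated 4T1R1 libraries lie within the same series, but each group has its own run of consecutive numbers. A difference between these runs cannot be separated from the treatment.

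On 17-DMAG, 1873 genes rose in 4T1R1 (13.9% of those tested) and 1938 fell (14.3%), by edgeR's quasi-likelihood test at an adjusted p below 0.05. Most of these changes were small. The median size of a called change was 0.219 on the log2 scale, and 2261 of the 3811 called genes (59.3%) changed by less than 0.25. Changes over 0.5 were called for 179 rises and 191 falls, and changes of at least 2-fold for 39 rises (0.289%) and 36 falls (0.267%). Of these, 13 rises and 7 falls averaged 100 or more normalized counts in the group where they were higher, where a normalized count is a count divided by the library's TMM-scaled size and multiplied by the mean such size. The treated and untreated libraries did not overlap in 3576 of the called genes, against 39.0% of all genes tested. The largest rises and falls named below were picked among genes without overlap. For them the lack of overlap is a condition of the choice and not a further result. Most other named genes were picked among called genes. A lack of overlap stated for them follows largely from the call and adds little to it. With libraries scaled by their total counts alone, the median of all genes moved from -0.0086 to 0.0249, and 2357 genes were called higher and 1316 lower. Named genes below are given relative to the TMM scaling. In a population of cells, less RNA per cell and fewer cells with the RNA cannot be told apart.

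**Figure D1:**
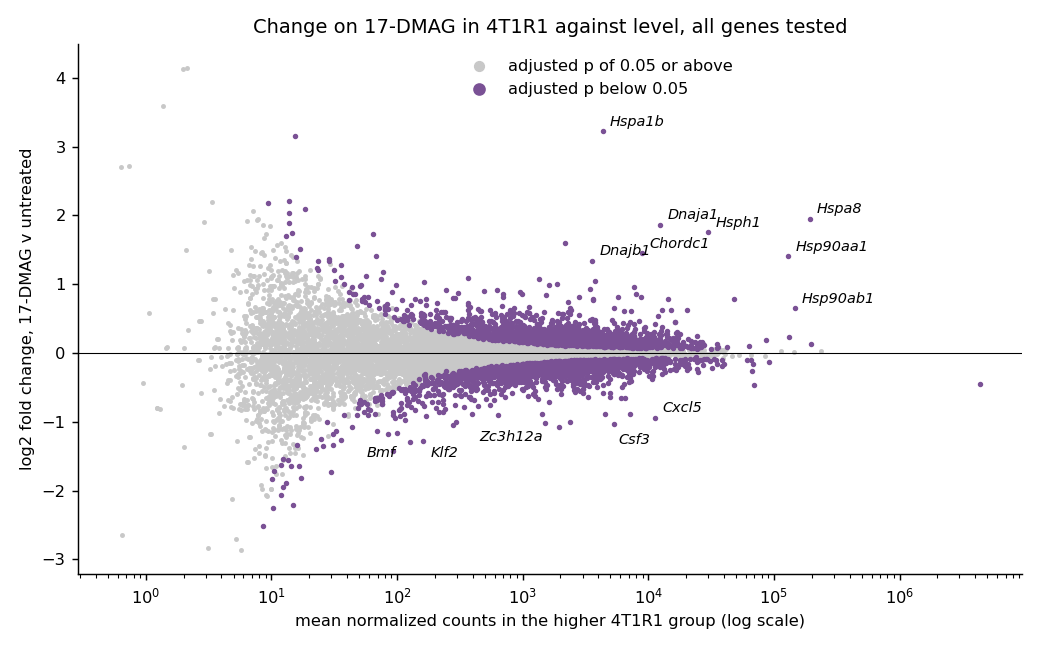
Change of each of the 13507 genes tested on 17-DMAG in 4T1R1 (vertical axis, log2 fold change from edgeR) against its mean normalized counts in the higher group (horizontal axis, log scale). Called genes are purple, and the chaperone genes Hspa1b, Hspa8, Dnaja1, Hsph1 and Hsp90aa1 stand above the rest at high levels, whereas called falls such as those of Csf3 and Cxcl5 were about 1 on this scale.

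A gradient with base composition ran through the whole response and is given here because several lists follow it. Over 10012 genes, the log2 fold change in 4T1R1 had a Spearman's rho of -0.492 with the GC content of the transcript, against -0.0796 in 4T1 and -0.28 in 4T1R2, and of 0.175 with transcript length. These are descriptions across genes, which share libraries and are not replicates. The median log2 fold change fell from 0.145 among the 1003 genes of lowest GC to -0.148 among the 1001 of highest GC. Libraries of the same group also deviated from their group mean along GC, with rho of -0.253, 0.527 and -0.392 in untreated and -0.252, 0.128 and 0.129 in treated 4T1R1. When the trend of each library with GC and length was removed, 1558 genes rose (11.5%) and 1512 fell (11.2%), and 2362 of the 3811 genes (62.0%) kept their call and direction. Of the 370 called genes with changes over 0.5, 313 did so. Values with the trend removed are therefore given in brackets beside each list, with the counts in the order of the sentence and then the median. The counts in each list stand against 13.9% of all genes tested that rose and 14.3% that fell, and those in brackets against 11.5% and 11.2%. The part of the gradient in each result was not tested further.

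**Figure D2:**
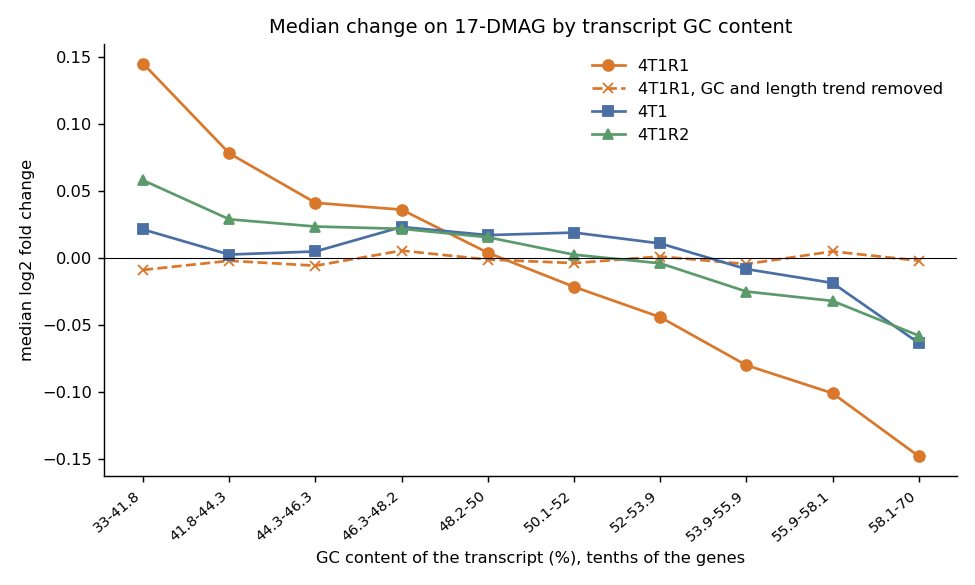
Median log2 fold change on 17-DMAG (vertical axis) of genes put into 10 groups of rising transcript GC content (horizontal axis, %). In 4T1R1 the median ran from 0.145 to -0.148 across the groups, in 4T1 and 4T1R2 less steeply, and with the trend of each library removed it ran between -0.00897 and 0.00543.

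The largest rises among genes of at least 100 normalized counts were those of cytosolic chaperones. Of 11 HSP70 and HSP110 genes tested, 6 rose and none fell, with a median log2 fold change of 0.165 beside -0.0086 for all genes (5 and 0, median 0.135, with the GC and length trend removed). The member that was lost is Hspa13, which was at 0.13 and at -0.0123 with the trend removed. Its call was also lost with DESeq2 (0.132), with only the 4T1R1 libraries fitted (0.136), and without any 1 of the 3 treated libraries (0.144, 0.116 and 0.134) or untreated replicate 1 (0.143) or 2 (0.0602). Hspa1b, the strictly stress-inducible HSP70 (chr17:34956436-34959238), had 439.5, 486 and 469.9 normalized counts in the untreated libraries and 4235, 4419.5 and 4391 in the treated ones. The lowest treated library was thus far above the highest untreated one, and the gene rose 9.35-fold (log2 fold change 3.23 ± 0.048, SE, n = 3 per group, edgeR adjusted p = 2.77e-38). Its near-identical copy Hspa1a, whose 250 upstream bases match it in 247 positions (98.8%), had 8.77, 13.6 and 10.2 normalized counts untreated and 8.63, 15.9 and 13.3 treated and was not called. Reads can be split between these copies or lost from both, since the handling of reads with several matches is not given in the sources used here, so the level of either is uncertain.

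Hspa8, the constitutive HSC70 (chr9:40800984-40810087), had 48289, 50714 and 49981 normalized counts untreated and 187937, 194761 and 194365 treated. It rose 3.87-fold (log2 1.95 ± 0.024, edgeR adjusted p = 4.60e-41), with no overlap between groups. Hsph1, an HSP110 that exchanges nucleotide on HSP70, rose from 8915 ± 207 to 30035 ± 590 (SD, n = 3 per group), or 3.37-fold, and its relative Hspa4l rose by 0.81 on the log2 scale from 5006, 4754 and 5266 to 8845, 8686 and 8818. Hspa4, a further HSP110, rose by 0.17. Of the members that were not called, Hspa14 and Hspa2 were at 0.0028 and -0.026.

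Of 27 genes for HSP90 and its co-chaperones, 14 rose and 2 fell (median 0.20; 13 and 2, median 0.146, with the trend removed). The stress-inducible isoform Hsp90aa1 had 50564, 47631 and 49439 normalized counts untreated and 128878, 130033 and 131767 treated, a rise of 2.65-fold (log2 1.40 ± 0.025, edgeR adjusted p = 2.53e-35). The constitutive isoform Hsp90ab1 rose less, by 0.65 ± 0.020, from 93144, 93646 and 92313 to 143474, 148294 and 146389. Neither isoform's groups overlapped. The isoforms of other compartments stood apart from these. Hsp90b1 of the endoplasmic reticulum rose by 0.13, a call that was lost with the trend removed (0.046), and Trap1 of mitochondria had 4603 ± 178 and 4638 ± 194 and was not called.

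Several co-chaperones rose with HSP90. Ahsa2, an activator of the HSP90 ATPase, had 682, 699.8 and 754 untreated and 2137, 2108 and 2224 treated (3.03-fold), and its relative Ahsa1 rose by 0.96 ± 0.030. Chordc1, a CHORD-domain partner of HSP90, had 3325, 3026 and 3383 untreated and 8772, 8987 and 8867 treated (log2 1.45 ± 0.041, edgeR adjusted p = 5.49e-28). Stip1 (HOP), which bridges HSP70 and HSP90, and the immunophilin Fkbp4 rose by 0.63 and 0.62. Ptges3 (p23), which locks HSP90 in its closed state, rose by 0.54. Cdc37, the kinase-loading co-chaperone, fell by 0.13 on the log2 scale, and Fkbp8 fell by 0.12.

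The J-domain genes split sharply. Of 39 tested, 11 rose and 3 fell, with a median of -0.0030 (10 and 6, median 0.0051, with the trend removed). The 5 largest rises lay between 0.85 and 1.86. Dnaja1, an HSP40 that serves HSC70, had 3517, 3152 and 3527 normalized counts untreated and 12334, 12434 and 12368 treated. It rose 3.64-fold (log2 1.86 ± 0.038, edgeR adjusted p = 1.70e-33). Dnajb1, the classical stress-inducible HSP40, had 1362, 1449.7 and 1449 untreated and 3508, 3705 and 3573 treated (log2 1.34 ± 0.048), without overlap. Dnajb2, Dnaja4 and Dnajb4 rose by 0.89, 0.86 and 0.85. The members of the secretory pathway, Dnajb9, Dnajb11 and Dnajc3, had -0.24, -0.037 and -0.026 and were not called.

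Further proteostasis genes rose in part. Of 19 small HSP, BAG and ubiquitin genes, 5 rose and 2 fell (median -0.0106; 5 and 1, median 0.0814, with the trend removed). Hspb8, a small HSP that acts with BAG3, had 1750.1, 1784 and 1814 untreated and 3335, 3535 and 3359 treated normalized counts (log2 0.94 ± 0.040), and Serpinh1 (HSP47), the collagen chaperone, rose by 0.78. The co-chaperones Bag3 and Bag2 rose by 0.55 and 0.43, whereas the autophagy receptor Sqstm1 was at -0.059 and was not called. All 8 tested genes of the cytosolic chaperonin TRiC, which folds actin and tubulin, rose, by 0.14 to 0.32 (median 0.22; 8 and 0, median 0.16, with the trend removed). Cct7 rose most, from 10119, 9927 and 10046 to 12244, 12762 and 12664.

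Of 16 mitochondrial chaperone and protease genes, 4 rose and 2 fell (median -0.0153; 4 and 1, median 0.036, with the trend removed). Hspe1 (HSP10) and Hspd1 (HSP60), which share the upstream region with the heat shock motif, rose together. Hspe1 had 3395, 3226 and 3159 normalized counts untreated and 5667, 5624 and 5962 treated (log2 0.82 ± 0.035), and Hspd1 had 28637, 26875 and 28976 untreated and 48051, 49171 and 48112 treated (log2 0.78 ± 0.026). In neither gene did the groups overlap. Hspa9, the mitochondrial HSP70, rose by 0.17. The proteasome changed little in 4T1R1, with 7 of 36 subunit genes higher, 2 lower and a median of 0.0316 (11 and 4, median 0.0371, with the trend removed). Hsf1 itself was not called (1586 ± 68.4 untreated and 1479.9 ± 6.0 treated), and Hsf2 rose by 0.30, a call lost with the trend removed (0.17).

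**Figure D3:**
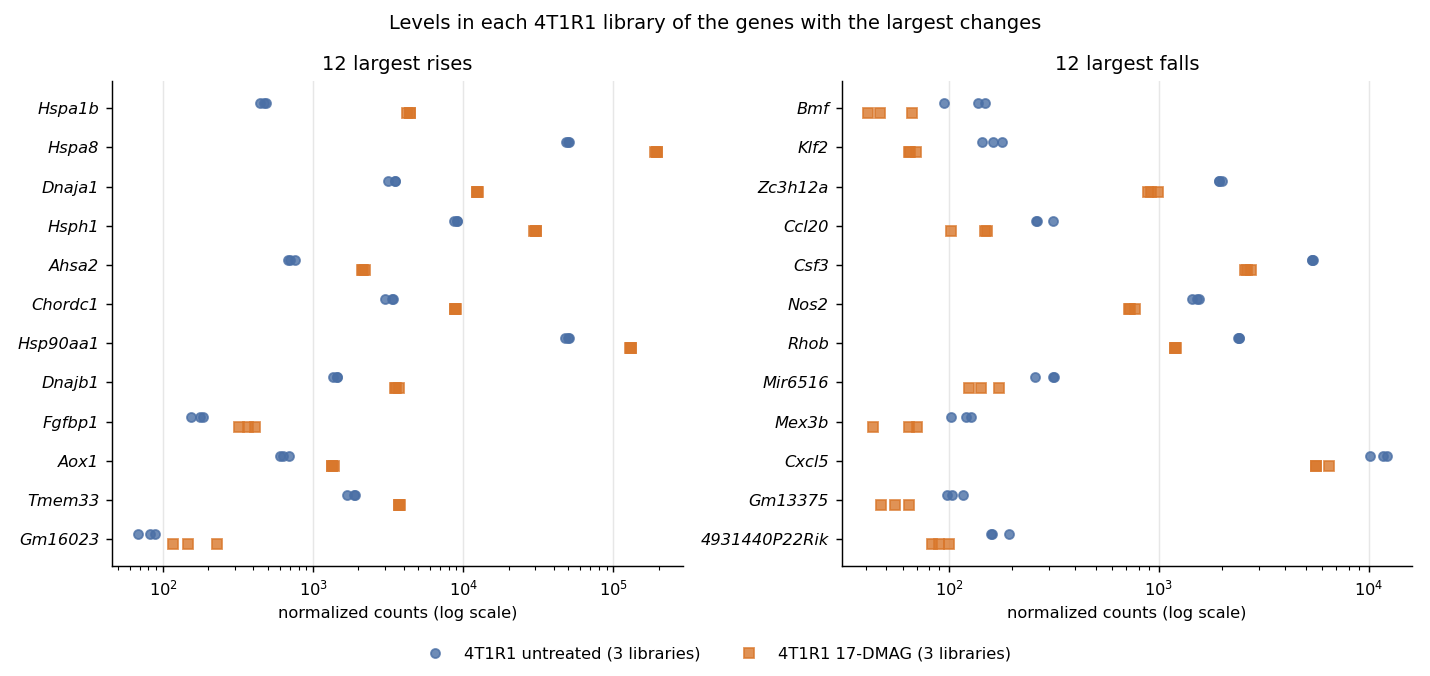
Normalized counts (horizontal axis, log scale) in each of the 3 untreated (blue circles) and 3 treated (orange squares) 4T1R1 libraries, for the 12 largest called rises and 12 largest called falls among genes with a mean of at least 100 in the higher group and no overlap. Of the 12 rises, 8 are chaperone genes, and of the 12 falls, 5 are NF-κB targets (Zc3h12a, Ccl20, Csf3, Nos2 and Cxcl5).

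Outside the chaperone lists, 4 further genes completed the 12 largest rises. Fgfbp1, which releases stored FGF from matrix, had 185, 154 and 176 normalized counts untreated and 323, 413 and 367 treated (log2 1.09 ± 0.11, edgeR adjusted p = 3.18e-10). Aox1, an aldehyde oxidase, had 598, 686 and 632 untreated and 1371, 1335 and 1336 treated (log2 1.08), and Tmem33, a protein of the endoplasmic reticulum, had 1871, 1685 and 1891 untreated and 3707, 3785 and 3738 treated (log2 1.04). In none of them did the groups overlap, which the choice of the 12 largest rises required. The predicted gene Gm16023 rose by 1.03 at 68.2, 82.4 and 89.1 untreated and 148, 116 and 229 treated.

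NF-κB targets formed the largest group of falls. Of 68 genes of the NF-κB pathway and its targets, 44 fell and 4 rose, with a median of -0.38 beside -0.0086 for all genes (45 and 3, median -0.351, with the trend removed). The 4 that rose, named after their values were seen, were Cxcl10 (0.69), Gadd45b (0.62), Cyld (0.14) and Plau (0.12). Csf3 (G-CSF, chr11:98701263-98703629), the cytokine that drives neutrophil production, had 5410.1, 5359.8 and 5386 normalized counts untreated and 2743, 2612 and 2562 treated. The treated libraries were at about the same level as each other and none reached the untreated range (log2 -1.03 ± 0.036, edgeR adjusted p = 5.09e-25). Cxcl5, a neutrophil chemokine, had 12133, 10101 and 11714 untreated and 6461, 5573 and 5624 treated (log2 -0.94 ± 0.049), and Cxcl1, a further ligand of CXCR2, had 4552, 4358 and 4715 untreated and 2721, 2335 and 2338 treated (log2 -0.88 ± 0.056). Neither chemokine's groups overlapped. Ccl20, the ligand of CCR6, was lower, at 263, 261 and 312 untreated and 152, 148 and 102 treated (log2 -1.05), and the monocyte chemokine Ccl2 fell 1.46-fold from 1329, 1220.3 and 1184 to 881, 827 and 846.

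Nos2, the inducible nitric oxide synthase, had 1557, 1432 and 1517 normalized counts untreated and 771, 730.1 and 716 treated (log2 -1.02 ± 0.076, edgeR adjusted p = 7.88e-14). The RNase Zc3h12a (regnase-1), which degrades inflammatory mRNAs and is itself an NF-κB target, had 1931, 2007 and 1924 untreated and 987, 913 and 889 treated (log2 -1.07 ± 0.062). In both genes the highest treated library was below the lowest untreated one. Nfkbia (IκBα), the inhibitor that NF-κB restores in its own feedback loop, had 2945, 3074 and 3096 untreated and 2073, 2036 and 1958 treated (log2 -0.59 ± 0.043), and Tnfaip3 (A20), another feedback inhibitor, was at -0.44. The subunit genes fell less, with Rela at -0.29, Nfkb1 at -0.29 and Relb at -0.59, all called. The interleukin gene Il1a fell 1.65-fold, from 144, 161 and 171 to 104, 76.2 and 109. Il1b, Il6 and Cxcl2 were tested and not called, at -0.038, -0.30 and 0.24.

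Transcription factors of the immediate-early kind moved the same way. Of 35 AP-1, EGR and KLF genes, 17 fell and only Myc rose (median -0.233; 16 and 1, median -0.18, with the trend removed). Klf2, a short-lived Krüppel-like factor (chr8:72319033-72321656), had 179, 163 and 143 normalized counts untreated and 64.2, 69.8 and 65.3 treated (log2 -1.28 ± 0.16, edgeR adjusted p = 7.04e-08). Egr2 and Egr3 were at -0.82 and -0.54, and Junb, with 5627, 6607 and 5970.2 untreated and 3617, 3899 and 4064 treated, fell 1.57-fold. None of these 4 genes overlapped between groups. Fos, Fosb and Egr1, named after their values were seen, were at -0.23, 0.055 and -0.071 and were not called. Myc had 12406, 13248 and 11833 untreated and 13705, 14712 and 15144 treated (log2 0.22).

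The MAP kinase feedback list also holds outputs of the pathway such as Ccnd1, Etv4 and Etv5. Of its 22 genes, 10 were lower and 3 higher, with a median of -0.107 (7 and 3, median -0.0253, with the trend removed). The phosphatases Dusp8 and Dusp1 fell 1.51-fold and 1.33-fold, and the receptor antagonists Spry2 and Errfi1 fell 1.40-fold and 1.34-fold, whereas Dusp5 rose by 0.31 on the log2 scale. Among 27 mRNA decay factors, 10 fell and 4 rose (median -0.018; 11 and 2, median -0.0693, with the trend removed). Btg2, an antiproliferative adaptor of the CCR4-NOT deadenylase, had 102, 85.5 and 121 untreated and 50.8, 63.5 and 60.9 treated normalized counts (log2 -0.82 ± 0.18). The ARE-binding proteins Zfp36l1 and Zfp36l2 were at -0.41 and -0.38, both called. Mex3b, an RNA-binding ubiquitin ligase outside these lists, had 127, 121 and 102 untreated and 70.0, 43.4 and 64.2 treated (log2 -0.97), and Rhob, a short-lived GTPase, had 2379.6, 2413 and 2398 untreated and 1195, 1206 and 1186 treated (2.00-fold lower).

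The largest called fall among genes of at least 100 normalized counts was that of Bmf (chr2:118528757-118549687), a BH3-only protein that binds BCL2 proteins and promotes apoptosis. It had 94.5, 137 and 149 normalized counts untreated and 47.0, 66.7 and 40.9 treated, without overlap (log2 -1.30 ± 0.20, edgeR adjusted p = 3.22e-06). Of 18 genes of the BCL2 family, 6 fell and 2 rose (median -0.118; 5 and 2, median -0.0667, with the trend removed). Bcl2l11 (BIM), also BH3-only, fell 1.39-fold from 3478, 3319.8 and 3408 to 2471, 2397 and 2489, and Bbc3 (PUMA) was at -0.65, a call lost with the trend removed (-0.46). The 2 that rose were the antiapoptotic Bcl2 (0.32) and Bcl2l1 (0.15). The remaining genes among the 12 largest falls were 4931440P22Rik (-0.92), Gm13375 (-0.92) and Mir6516, which had 312, 256 and 316 normalized counts untreated and 174, 142 and 125 treated. Reads of these noncoding genes and of transcripts that overlap them cannot be told apart here, since the use of strand in counting is not given.

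The other stress pathways moved by smaller amounts. Of 19 genes of the integrated stress response, 10 rose and 2 fell, with a median of 0.164 (13 and 1, median 0.215, with the trend removed). Trib3, a pseudokinase target of ATF4, had 799, 784 and 891 normalized counts untreated and 1107, 1191 and 1276 treated (log2 0.53 ± 0.068). Asns, asparagine synthetase, had 5325, 5123 and 5151 untreated and 6755, 7163 and 6837 treated (0.41), and the glutathione-degrading Chac1 rose by 0.33. In Trib3 and Asns the groups did not overlap. Of 24 genes of the endoplasmic reticulum unfolded protein response, 9 fell and 3 rose (median -0.0899; 10 and 1, median -0.0991, with the trend removed). Xbp1, its IRE1-spliced transcription factor, fell 1.54-fold from 1234, 1147 and 1354 to 819, 793 and 812, Herpud1 was at -0.39 and Calr at -0.24, both called.

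Of 64 type I interferon targets, 13 were higher (20.3%) and 8 lower (12.5%), beside 13.9% and 14.3% of all genes tested. Their median was 0.0542 (12 and 7, median 0.00915, with the trend removed). Rsad2 (viperin) had 249.5, 245 and 292 normalized counts untreated and 566, 405 and 501 treated (log2 0.90 ± 0.10, edgeR adjusted p = 7.67e-09). Herc6 and Ifit1 rose by 0.65 and 0.58, whereas the GTPase Gbp2 fell 1.45-fold and Irf7, which amplifies interferon, 1.24-fold. None of these genes overlapped between groups, which was so for 3576 of the 3811 called genes. Of 28 nucleic acid sensor genes, 4 rose (14.3%) and 5 fell (17.9%), shares near those of all genes tested. Their median was -0.0562 (3 and 4, median -0.0511, with the trend removed). Mavs, the mitochondrial adaptor of the RNA sensors, rose by 0.47.

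Genes of DNA replication and the G1/S transition fell, in 23 of 44 with none higher, but by small amounts (median -0.11; 14 and 0, median -0.0805, with the trend removed). The helicase subunit Mcm7 had 4926, 4734 and 4674 normalized counts untreated and 4002, 3980.4 and 3993 treated (log2 -0.26 ± 0.033), and Chaf1b was at -0.26. Of 47 mitotic genes, 8 were higher (17.0%) and 7 lower (14.9%), near the 13.9% and 14.3% of all genes tested. Their median was -0.000116, and Cenpf rose most, by 0.46. With the trend removed, 4 of the 47 were higher and 14 lower (median -0.0403), beside 11.5% and 11.2% of all genes. In that fit the lower share was thus not near that of all genes. Of 21 Myc, cyclin and CDK inhibitor genes, 4 rose and 8 fell (median -0.116; 4 and 5, median -0.0742). The CDK inhibitor Cdkn1a (p21) fell 1.44-fold, from 405, 403 and 454 to 284, 308 and 288, and Ccnd2 rose by 0.28.

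Ribosome biogenesis genes rose in 20 of 40 and fell in 2 (median 0.101; 25 and 1, median 0.106, with the trend removed). Nop56, a box C/D snoRNP core protein, had 11255, 11333 and 11564 normalized counts untreated and 13477, 13678 and 14244 treated. The precursor Rn45s fell 1.37-fold, a level that also depends on how much ribosomal RNA was removed from each library. The cytosolic ribosomal proteins, with 25 of 75 lower and none higher (median -0.0488), changed with the treatment of GC, since 16 were higher and 13 lower with the trend removed (median 0.00173). Histone genes had 41 of 68 lower and none higher (median -0.18). With the trend removed their fall was smaller but remained, at 25 lower and 10 higher (median -0.0589), beside 11.2% of all genes lower in that fit. Reads of their near-identical copies may be split. The respiratory chain had 33 of 74 lower and 1 higher (median -0.122; 19 and 2, median -0.0586). Of 298 numbered Zfp zinc finger genes, with a median GC of 45.4% beside 50.3% for all genes, 89 rose and 14 fell (median 0.131; 56 and 9, median 0.0641).

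Among the remaining lists, glycolysis and HIF-1 targets fell in 22 of 36 and rose in 3 (median -0.151; 17 and 3, median -0.109, with the trend removed). The glycolytic Pfkl and the oxygen sensor Egln3 fell 1.24-fold and 1.37-fold, whereas the collagen prolyl hydroxylases P4ha2 and P4ha1 rose by 0.92 and 0.42. TGF-β targets and ID genes fell in 14 of 33 and rose in 4 (median -0.10; 14 and 3, median -0.0464), and the inhibitory Smad6 had 131, 118 and 138 untreated and 65.2, 77.2 and 83.0 treated normalized counts. YAP-TEAD targets rose in 10 of 25 and fell in 2 (median 0.0491; 12 and 2, median 0.117), led by Ankrd1 (4249, 4186 and 4185 untreated and 6268, 6454 and 6495 treated, log2 0.61). Transcripts of HSP90 client kinases, whose proteins depend on HSP90, fell in 14 of 44 and rose in 6 (median -0.0494; 9 and 5, median -0.0554), and the receptor kinase genes Fgfr2, Erbb3 and Ddr1 fell 1.37-fold, 1.34-fold and 1.38-fold.

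NRF2 targets had 7 higher and 8 lower of 29 (median -0.0402; 5 and 7, median -0.0109, with the trend removed). Nqo1, the quinone reductase that reduces benzoquinone ansamycins to their more active hydroquinones, was not called, at 227, 246 and 204 untreated and 209, 204 and 252 treated normalized counts. Of 18 ABC efflux transporter genes, 4 rose and 4 fell (median -0.0639; 3 and 2, median -0.056). The P-glycoprotein gene Abcb1a was not called, at 246 ± 4.55 and 271 ± 5.31, and its copy Abcb1b had 23668, 23131 and 23894 untreated and 25135, 23987 and 24852 treated (log2 0.065, edgeR adjusted p = 0.0348). That call of Abcb1b was lost without treated replicate 1 (0.0513) or 3 (0.0598), without untreated replicate 1 (0.0686) or 2 (0.0523), with no filter (0.0632), with only the 4T1R1 libraries fitted (0.0697), and with the GC and length trend removed (0.0259). Lysosome and autophagy genes had 6 higher and 14 lower of 50 (median -0.054; 3 and 8, median -0.0451), with Gabarapl1 at 0.50 and Tfeb at -0.76. Cholesterol and fatty acid synthesis had 6 higher and 6 lower of 35 (17.1% each), near the 13.9% and 14.3% of all genes tested. Its median was -0.000811 (7 and 5, median -0.00578). Chromatin silencing factors had 10 higher and 6 lower of 38, with a median of 0.00911 (2 and 4, median -0.00555). Of the 10 epithelial markers, 1 rose and 3 fell (median -0.0231), whereas 2 were higher and 1 lower with the trend removed (median 0.0255), where Krt8 (0.000611) and Cldn3 (-0.00234) were not called. Cldn4, a claudin, had 246, 175 and 194 untreated and 129, 106 and 117 treated. No leukocyte marker of 3 tested was called, and of 4 fibroblast and endothelial markers tested Pdgfra fell 1.19-fold.

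**Figure D4:**
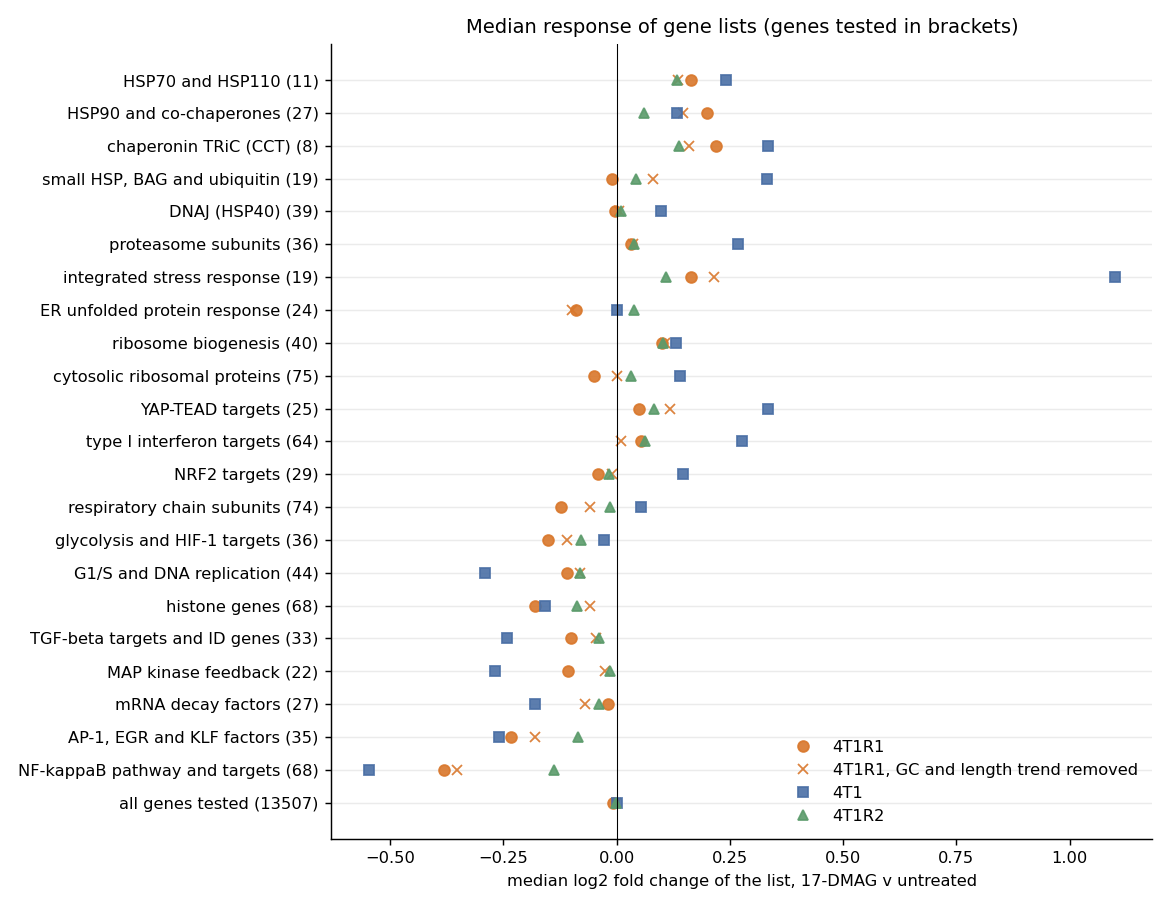
Median log2 fold change on 17-DMAG (horizontal axis) of gene lists (vertical axis, genes tested in brackets) in 4T1R1, 4T1 and 4T1R2, with a cross for 4T1R1 with the GC and length trend removed. Among the lists plotted, that of NF-κB was lowest in 4T1R1 at -0.38, and the integrated stress response stood at 0.164 in 4T1R1 and at 1.1 in 4T1.

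In 4T1, from which 4T1R1 was derived, 2482 genes rose on 17-DMAG (18.4%) and 2430 fell (18.0%), and in 4T1R2 833 rose (6.17%) and 588 fell (4.35%). The difference between the responses, fitted as an interaction in edgeR, was above 0 in 1244 genes (9.21%) and below 0 in 1222 (9.05%) for 4T1R1 minus 4T1. For 4T1R1 minus 4T1R2 it was above 0 in 124 (0.918%) and below 0 in 164 (1.21%). Each population has its own untreated libraries, but both differences use the 4T1R1 libraries and are not independent of each other. Both also compare libraries of separate identifier series, from which they cannot be separated. With libraries scaled by total counts alone the first split became 3532 above and 419 below, with the median of all genes shifted to 0.146, and the second 611 and 61, with a median of 0.0753. Without 17-DMAG-treated 4T1 replicate 3, 803 and 779 genes differed between 4T1R1 and 4T1. For the difference from 4T1R2, 73 and 104 genes remained without treated 4T1R1 replicate 1, 68 and 87 without treated 4T1R2 replicate 3, and 98 lower genes without untreated 4T1R2 replicate 2.

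Of the 288 genes whose response differed between 4T1R1 and 4T1R2, 268 were called in 4T1R1, and in 266 the change was the larger in 4T1R1. Of the 39 genes that rose at least 2-fold in 4T1R1, 10 rose less than in 4T1 and 4 rose more by this test, and 11 rose more than in 4T1R2 and none less. Of the 36 that fell at least 2-fold, 4 fell less than in 4T1 and 2 fell more, and 5 fell more than in 4T1R2 and none less. The test called 89.6% of 2-fold differences from 4T1 in simulated counts that held no GC trend, so a difference that was not called is not shown to be 0. These genes were picked for their calls or size in 4T1R1 and compared with the same 4T1R1 libraries, which favors larger responses in 4T1R1, so the counts are a description.

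For the most inducible HSP70 gene, the response of 4T1R1 lay between those of the other populations. The medians of the chaperone lists did not share 1 order as fitted. With the GC and length trend removed, each median in 4T1R1 lay between those of 4T1 and 4T1R2, by margins that were not tested. The medians in 4T1R1, 4T1 and 4T1R2 were 0.165, 0.241 and 0.134 for HSP70 and HSP110 and 0.22, 0.335 and 0.137 for TRiC. With the trend removed they were 0.135, 0.252 and 0.116 for HSP70 and HSP110 and 0.16, 0.298 and 0.11 for TRiC. For HSP90 and co-chaperones the median was highest in 4T1R1, at 0.20 against 0.134 and 0.0606, but with the GC and length trend removed it was 0.146 against 0.177 and 0.0665. For the J-domain genes the median was lowest in 4T1R1, at -0.0030 against 0.0982 and 0.0107, and so it was for small HSP, BAG and ubiquitin genes (-0.0106 against 0.331 and 0.0431) and for mitochondrial chaperones and proteases (-0.0153 against 0.0701 and 0.00381). With the trend removed these 3 medians in 4T1R1 were 0.0051, 0.0814 and 0.036, each between those of 4T1 (0.0792, 0.313 and 0.0687) and 4T1R2 (0.00272, 0.025 and 0.0191). Hspa1b rose by 3.23 on the log2 scale in 4T1R1, 5.11 in 4T1 and 2.29 in 4T1R2, a difference of -1.88 ± 0.074 from 4T1 (edgeR adjusted p = 1.42e-22) and 0.93 ± 0.071 from 4T1R2. It had 470.3, 483 and 518 normalized counts in untreated 4T1 and 17066 and 16748 in treated 4T1, and 649, 682 and 695 and 3526, 3191 and 3192 in 4T1R2. Untreated 4T1R1 lay nearest to untreated 4T1, and the treated libraries of the 3 populations did not overlap. Dnaja1 rose by 1.86 in 4T1R1, 2.03 in 4T1 and 1.18 in 4T1R2, so that its response was nearer to that of 4T1 (-0.16, edgeR adjusted p = 0.0322). Over the HSP70 and HSP110 list, 4 genes responded less in 4T1R1 than in 4T1 and 4 more than in 4T1R2, and over HSP90 and co-chaperones 11 less and 1 more than in 4T1, and 9 more than in 4T1R2.

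The integrated stress response was where 4T1R1 departed most from 4T1. Of its 19 genes, 17 responded less in 4T1R1, and the median log2 fold change was 0.164 in 4T1R1, 1.1 in 4T1 and 0.11 in 4T1R2. Trib3 rose by 0.53 in 4T1R1 against 2.71 in 4T1, where it went from 204, 243 and 235 to 1479 and 1501 normalized counts. Chac1, with 0.33 against 2.43, and Atf5, with 0.38 against 2.25, showed the same order. Untreated 4T1R1 already had 799, 784 and 891 of Trib3, above all 3 untreated 4T1 libraries. Gpt2, an alanine transaminase of mitochondria outside the list, also differed (-1.83 ± 0.089). Proteasome subunits, with 31 of 36 higher in 4T1 and a median of 0.267 there, responded less in 4T1R1 in 29 cases and more in none. Cytosolic ribosomal proteins responded less in 59 of 75, NRF2 targets in 18 of 29 and interferon targets in 17 of 64, with 0, 1 and 1 more. These counts hold the GC gradient, which was steeper in 4T1R1 than in 4T1. With the trend removed, the medians in 4T1R1 and 4T1 were 0.00173 and 0.118 for ribosomal proteins and -0.0109 and 0.172 for NRF2 targets. They were 0.00915 and 0.264 for interferon targets, 0.0371 and 0.234 for proteasome subunits and 0.215 and 1.09 for the integrated stress response. Over all genes tested, the difference from 4T1 was below 0 in 9.05% and above 0 in 9.21%.

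**Figure D5:**
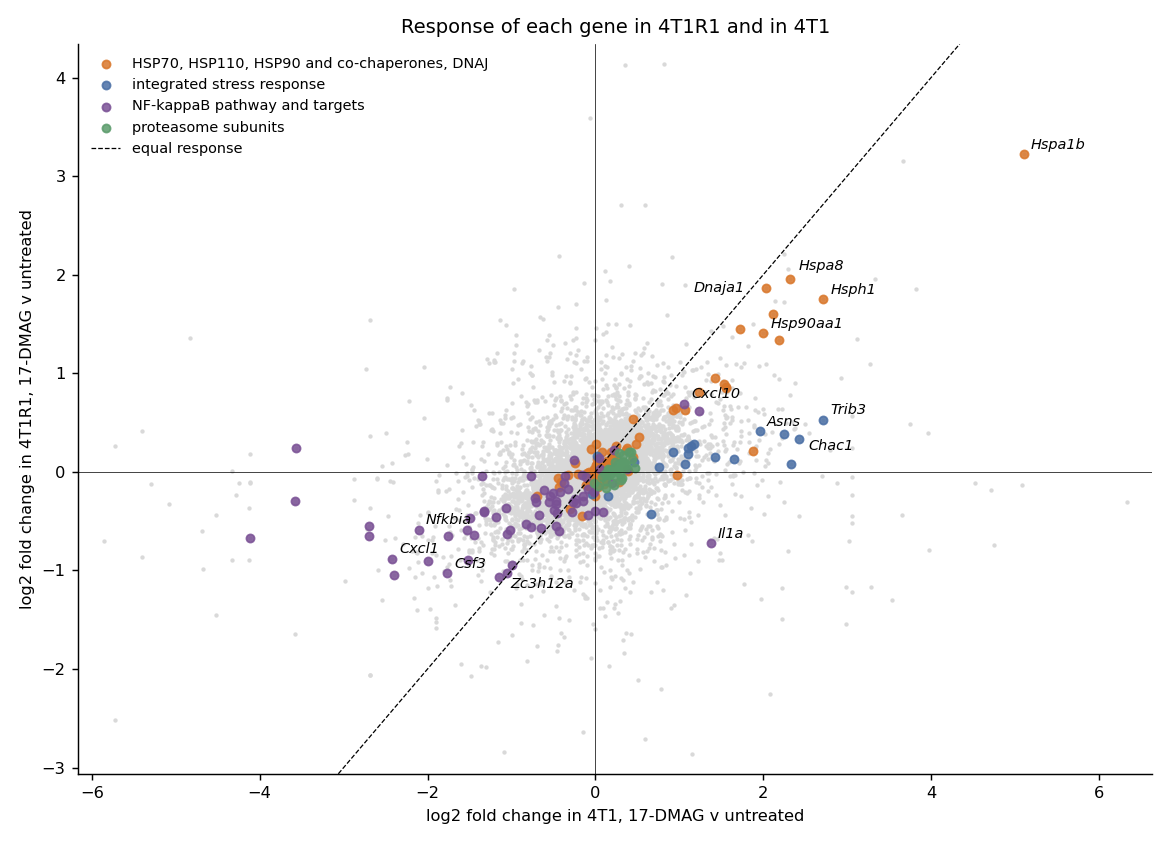
Log2 fold change on 17-DMAG in 4T1R1 (vertical axis) against that in 4T1 (horizontal axis) for the genes tested, with the line of equal response dashed. Chaperone genes (orange) lie below the line at high values, integrated stress response genes (blue) spread along the 4T1 axis, NF-κB genes (purple) lie mostly in the lower left, and proteasome genes (green) stand slightly right of 0.

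The fall of NF-κB targets was smaller in 4T1R1 than in 4T1 and larger than in 4T1R2. Of the 68 genes, 24 had a higher response in 4T1R1 than in 4T1 and 6 a lower one, and 21 had a lower response than in 4T1R2 and none a higher one. The list medians were -0.38 in 4T1R1, -0.547 in 4T1 and -0.139 in 4T1R2 (-0.351, -0.567 and -0.11 with the GC and length trend removed). Cxcl1 was at -0.88 in 4T1R1, -2.43 in 4T1 and -0.053 in 4T1R2, and Nfkbia at -0.59, -2.11 and -0.16. Cxcl1 had 587, 479.8 and 623 normalized counts in untreated 4T1 and 114 and 92.9 in treated 4T1, below all 3 treated 4T1R1 libraries (2721, 2335 and 2338). Csf3 differed from 4T1R2 (-0.93 ± 0.049, edgeR adjusted p = 3.31e-17), where it had 5274, 5298 and 5120.4 untreated and 4782, 4824 and 5080.4 treated, and so did Ccl2 (-0.88). Ccl2 and Nos2 were at or near 0 counts in untreated 4T1, so no fold is given for them there. Among other genes, Dll4, a Notch ligand (1.72), Egr3 (1.37), Btg2 (1.31) and the ubiquitin ligase Neurl3 (1.28) fell less in 4T1R1 than in 4T1.

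Genes that moved in opposite directions in 4T1R1 and 4T1 numbered 180, with 74 higher in 4T1R1 and lower in 4T1 and 106 the reverse. The difference was called in all 180, but it is built from the same responses. Opposite calls make this nearly certain, so it adds no support. In 4T1R2, 5 genes were called against the direction of 4T1R1. Among those named by the rule Il1a differed most. It fell 1.65-fold in 4T1R1 and rose by 1.37 on the log2 scale in 4T1, from 9.32, 7.48 and 14.6 to 28.1 and 27.0 normalized counts, still below treated 4T1R1 (104, 76.2 and 109). Gbp2b, a guanylate-binding protein, was at -0.48 in 4T1R1 and 0.74 in 4T1, and Rn45s at -0.45 and 0.42. Cebpb, an inflammatory C/EBP factor, was at -0.43 in 4T1R1 and 0.67 in 4T1. Slc25a40, a mitochondrial carrier, was at 0.31 and -0.25. Of the other genes named by the same rule, Cebpd (-0.46) and Fbxo32 (-0.55) fell in 4T1R1 and lost the call there without 1 library, Cebpd without untreated replicate 2 (-0.344) and Fbxo32 without treated replicate 2 (-0.437). Thap2 (0.30) and Fam208a (0.30) rose, but not with the GC and length trend removed (0.169 and 0.12). Numbl, 2010315B03Rik, Zfp934 and Zfp383 lost theirs both with the trend removed and without any of several single libraries. For Numbl these values were -0.394 and -0.465 without treated replicates 1 and 2, and -0.415 and -0.404 without untreated replicates 2 and 3. For 2010315B03Rik they were 0.387 and 0.386 without treated replicates 1 and 3 and 0.302 without untreated replicate 2, and for Zfp934 0.355 and 0.387 without treated replicate 1 and untreated replicate 2. For Zfp383 they were 0.241 and 0.349 without treated replicates 2 and 3, and 0.269 and 0.271 without untreated replicates 1 and 2. A further 1437 genes were called in 4T1R1 and not in 4T1, and the difference itself was called in 410 of them.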

How the data were processed

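RNA was sequenced from untreated and 17-DMAG-treated 4T1R1, 4T1 and 4T1R2, with 3 libraries per group. The authors aligned reads to mm10/GRCm38 with STAR and counted them per gene with featureCounts, and the deposited values are whole-number counts without normalization. The submitters' processing notes also name Subread 1.6.2 and bcl2fastq 2.20. Whether counting used strand, and how multi-mapping reads were handled, is not given in the sources used here. The kit was stranded with removal of ribosomal RNA.

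The counts were analysed with edgeR 4.0.16 (filterByExpr, TMM scaling, quasi-likelihood test, Benjamini-Hochberg adjustment over 13507 genes, threshold 0.05) in R 4.3.3 in 1 fit over 17 libraries, replicates 1 and 2 of treated 4T1 being averaged. The study's own tool, DESeq2 (1.42.0), was an alternative. Differences between responses were interaction contrasts. The common biological coefficient of variation was 0.0376, and edgeR loaded limma 3.58.1. Tables and figures were made with Python 3.11.15, pandas 2.3.3 and matplotlib 3.10.9. In simulated counts for 13228 genes, the 4T1R1 test found 97.9% of the 2-fold changes and 76.0% of changes of 0.5 (log2), while unchanged genes made up 5.23% of what it called. The simulated counts held no trend with GC and no doubling by read pairs. These shares therefore need not hold for the real libraries.

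The 36 gene lists, the rules for named genes and the comparison itself were chosen with earlier results of these data known. Named genes were (a) the 12 largest rises and 12 largest falls in 4T1R1 with an adjusted p under 0.05, no overlap between treated and untreated libraries and 100 or more normalized counts on average in the higher group. They were also (b) up to 6 called members of each list, by size of change, (c) the 6 largest of each difference in each direction under the conditions of (a) among genes called in 4T1R1, (d) the 6 largest in each direction called oppositely in 4T1, and (e) chosen chaperone, stress and NF-κB genes and every marker. Other genes, such as Cxcl10, Gadd45b, Cyld, Plau, Fos, Fosb and Egr1, were named after their values were seen. GC content and length came from GENCODE transcripts of GRCm38 and were known for 96.4% of the genes tested. The trend of each library with them was removed by offsets from a spline with 5 degrees of freedom. Transposable elements were not analysed here.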

Additional observations from a re-analysis of the deposited data

Results flagged for a closer look

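These results stood out because the response to 17-DMAG differed between 4T1R1 and another population in a test of the difference itself, edgeR's interaction contrast. Against 4T1, 1244 genes had a higher and 1222 a lower response in 4T1R1. Against 4T1R2, 124 had a higher and 164 a lower one.

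Against 4T1, the lower responses were led by Trib3 (-2.18 on the log2 scale), Chac1 (-2.1), Il1a (-2.1), Hspa1b (-1.88), Atf5 (-1.87) and Gpt2 (-1.83). The value of Il1a rests on low levels in 4T1, at 9.32, 7.48 and 14.6 normalized counts untreated and 28.1 and 27.0 treated. The higher responses were led by Dll4 (1.72), Cxcl1 (1.55), Nfkbia (1.52), Egr3 (1.37), Btg2 (1.31) and Neurl3 (1.28). Of the genes that fell in 4T1R1 and rose in 4T1, Cebpd differed by -1.47, Gbp2b by -1.22, Fbxo32 by -1.1, Numbl by -0.933 and Rn45s by -0.872. Of those that rose in 4T1R1 and fell in 4T1, 2010315B03Rik differed by 0.987, Zfp934 by 0.843, Zfp383 by 0.69, Fam208a by 0.574, Slc25a40 by 0.565 and Thap2 by 0.547.

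Against 4T1R2, the lower responses were led by Lipt2 (-0.957), Csf3 (-0.932), Snord49b (-0.888), Ccl2 (-0.879), Cxcl1 (-0.827) and Creb3l2 (-0.824). The higher ones were led by Hspa1b (0.933), Gm5141 (0.818), Spaca6 (0.796), E130311K13Rik (0.754), Perm1 (0.707) and Dnaja1 (0.689). Some of these genes rest on few libraries within 4T1R1. Perm1 was at 0.30 on the log2 scale in 4T1R1 and was no longer called when any 1 of 5 libraries was left out, with values of 0.203 and 0.313 without treated replicates 1 and 2 and of 0.338, 0.275 and 0.298 without untreated replicates 1, 2 and 3. Its call was also lost with DESeq2 (0.303), no filter (0.301) and only the 4T1R1 libraries fitted (0.308). Snord49b was at -0.44 and was not called without treated replicate 2 (-0.392) or 3 (-0.371) or untreated replicate 1 (-0.304) or 2 (-0.456), nor with DESeq2 (-0.44), scaling by total counts (-0.404), only the 4T1R1 libraries fitted (-0.434) or the GC and length trend removed (-0.358). Reads of a small nucleolar RNA and of its host transcript overlap, so its level is uncertain. Spaca6, at 0.31, was not called without treated replicate 1 (0.262), and E130311K13Rik, at 0.46, was not called without treated replicate 2 (0.411). Gm5141, at 0.57, was not called with the GC and length trend removed (0.333). The causes of these differences were not tested.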

How the results depend on the processing

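The settings tried were DESeq2, its RLE scaling, scaling by total counts, a filter of 10 counts in each library or none, a fit of only the libraries compared, 18 separate libraries, no Rn45s, a 2-fold minimum, the replicate number as a block, each library left out, and, chosen after seeing the data, removal of the GC and length trend. Of 239 named and called genes, 178 kept direction and call under every alternative that tested them, among them all 24 of the largest changes. Of these 24, Bmf, Ccl20 and Nos2 were tested under 15 alternatives and the others under 16. The 24 were picked for their call and lack of overlap, which favors keeping the call. With the trend removed, Hspa13 (-0.0123), Krt8 (0.000611) and Yme1l1 (-0.024) changed sign, and 41 of the named genes lost their call. For these changes the cause was not tested.

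A 2-fold minimum left 39 rises and 36 falls in 4T1R1, 55 and 85 genes for the difference from 4T1, and 2 and 1 for that from 4T1R2. Scaling by total counts gave 3532 and 419, and 611 and 61, for these differences, and medians of 0.199 for HSP70 and HSP110, 0.234 for HSP90 and co-chaperones and -0.347 for the NF-κB list. Without a filter, 284 genes were lower than in 4T1R2. With the trend removed, the HSP90 list was at 0.146 and the NF-κB list at -0.351, which was -0.302 with a minimum of 10 counts.

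Leaving out a library gave 1425 to 1827 rises and 1465 to 1820 falls in 4T1R1, 803 to 1288 and 779 to 1246 for the difference from 4T1, and 68 to 177 and 87 to 226 for that from 4T1R2. The list medians ran from 0.148 to 0.175, 0.143 to 0.231 and -0.382 to -0.313. Where treated 4T1 kept 1 sample, that sample was assumed to vary like the other groups.

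Replicate numbers did not pair the 4T1R1 libraries (correlations of same-numbered deviations -0.0264, -0.0131 and 0.0183). With the replicate block, 1910 genes rose and 1964 fell in 4T1R1, 1293 and 1254 differed from 4T1, and 152 and 197 from 4T1R2. In simulated data at these depths, 64.0% of changes of 0.25 (log2) in 4T1R1 and 26.0% of such differences from 4T1 were called. The simulated data held no trend with GC, unlike the real libraries.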
